A study of Mus musculus with 35 samples.

Results

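The comparison described here set leukemic bone marrow cells of mice carrying the fusion gene NUP98-JARID1A after 5 days of doxycycline against the same kind of cells after 3 days. It takes 6 of the series' 33 RNA sequencing libraries, 3 of day 5 and 3 of day 3, chosen by their labels, and asks what went on changing after day 3; no untreated library enters the test. All mice were C57BL/6, carried regulatable expression of the fusion and had been transplanted, and all 6 libraries came from mice given doxycycline at 4 mg/ml. Age was not given in the labels. RNA was extracted from bone marrow cells sorted as GFP/CD45.2+ and made into stranded poly-A libraries. For context, values are also given for 4 untreated libraries of this model and for 3 libraries labelled as controls, and the change between the days was set against that in NUP98-DDX10 and NUP98-NSD1 cells (3 libraries at each day for each). The labels number libraries but not animals or primary leukemias, so each p-value reflects the spread among these libraries, which may be technical. Which promoter or cell type drives the fusion is not given in the sources used here. In bulk RNA, fewer cells of a type and less RNA per cell cannot be told apart.

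NUP98 is a nuclear pore protein whose N-terminal part is fused to many partners in acute myeloid leukemia. JARID1A (Kdm5a) contributes a PHD finger that reads methylated lysine 4 of histone H3, and such fusions are known to hold Hoxa genes and other progenitor genes in an active state. When the oncogene is shut off in models of this kind, blasts can lose progenitor transcripts and gain those of maturing granulocytes and macrophages. Cdk6, the cyclin D-dependent G1 kinase, is named in the series' title as a direct target of NUP98 fusions.

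The transgene was already low at day 3 and did not pass the test for a further change. Normalized counts (reads divided by the authors' size factor for the library) of the NUP98-JARID1A row were 99.5, 90.0 and 99.8 at day 3 and 100.3, 95.4 and 60.2 at day 5, against 3042 to 3489 in the untreated libraries. The controls read 2.52 to 72.0, so the highest control lay above day 5 replicate 3. How much of the counts left under doxycycline is background was not tested. The day 3 and day 5 groups overlapped, and the log2 difference was -0.21 ± 0.24 (SE), adjusted p = 0.624. For eGFP the counts were 400.4, 294 and 319 at day 3 and 324, 340 and 305 at day 5 (untreated 9450 to 12506; adjusted p = 0.869), and for luciferase 6072, 5036 and 5070 against 4708, 5095 and 6070 (untreated 2628 to 4149; adjusted p = 0.920). Neither marker separated the days, and eGFP, on which the cells were sorted, stood far below its untreated level at both. In the controls eGFP read 13.9 to 210 and luciferase 9.09 to 473. The endogenous genes of the fusion parts did not pass either: Nup98 differed by -0.03 ± 0.12 (adjusted p = 0.898) and Kdm5a by 0.32 ± 0.20 (adjusted p = 0.338).

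Depth was 16387544 to 19757107 reads in genes at day 3 and 18765492 to 28903870 at day 5, and the 10 most abundant genes took 7.27% to 8.37% and 9.40% to 11.6% of the reads. Day 5 replicate 1, the deepest library, stood apart from the other day 5 libraries: the chi-square per degree of freedom of its reads was 87.9 and 163 against replicates 2 and 3, which differed from each other by 19.9. By the same measure, control replicate 3 gave 345 and 361 against control replicates 1 and 2, which gave 12.3 between them. The fit of all 33 libraries, given below as an alternative, takes in this spread among the controls. No libraries held the same values.

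Of 11169 features tested, 755 rose and 518 fell, so 11.4% were called (6.76% higher, 4.64% lower). A gene rose or fell here if its Benjamini-Hochberg adjusted p was under 0.05 in limma on log2(normalized count + 1), a scale that understates the change of low genes. At least 2-fold rises numbered 400 and falls 223, and at least 4-fold rises 82 and falls 38. The median feature differed by 0.02. Scaling to the library total in place of the authors' size factors moved that median to -0.20 and the share of rises among called genes from 59.3% to 28.1%, so directions below are relative to the authors' scaling. Leaving out day 5 replicate 1 raised the number called to 3115 and kept 96.5% of the calls; leaving out any of the other libraries lowered it, to 469, 523 and 345 without day 3 replicates 1, 2 and 3, and to 434 and 914 without day 5 replicates 2 and 3.

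**Figure D1:**
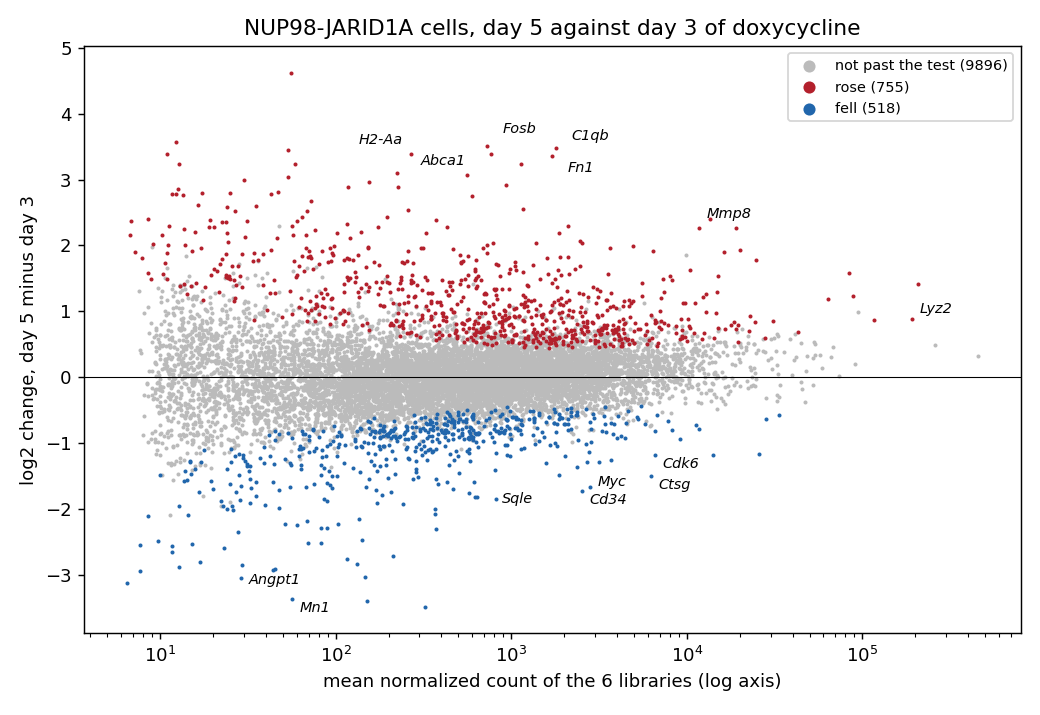
Log2 change from day 3 to day 5 (vertical axis) against the mean normalized count of the 6 libraries (horizontal, log axis), 1 point for each of the 11169 features; red points rose (755), blue fell (518), grey did not pass. Mn1 and Angpt1 lie among the deepest falls at low counts, and C1qb, Fn1 and Fosb among the largest rises.

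Genes of the G1 cell cycle machinery fell or did not pass. Cdk6 (chr5:3341004-3531008, GRCm38) read 10617, 7965 and 8946 at day 3 and 4926, 4029 and 3230 at day 5, against 16050 to 16737 without doxycycline. Every day 5 library lay below every day 3 library, and the log-scale mean of day 3 was 2.28-fold higher (log2 -1.19 ± 0.19, adjusted p = 0.00758). Cdk4, its close relative, fell by 0.92 on the log2 scale (± 0.13, adjusted p = 0.00464). Ccnd1, a D-type cyclin that activates both kinases, counted 4234, 3513 and 3720 at day 3 and 1575, 1610 and 1505 at day 5. Untreated libraries, at 1583 to 2536, lay below every day 3 library and overlapped day 5 in replicate 2 alone, and the fall was 1.29 (± 0.13, adjusted p = 0.00213). In all, 5 of 21 G1 genes fell (Ccnd2 and Ccne1, an S-phase entry cyclin, being the other ones), none rose, and the list's median was -0.26. Leaving out 1 library gave 3 to 8 falls and 0 to 2 rises, and the fit of all 33 libraries 8 and 2. The call of Ccne1 (adjusted p = 0.0181) was lost without day 3 replicates 1, 2 or 3 (0.0790, 0.0526 and 0.0955) or day 5 replicate 2 (0.0640). That of Ccnd2 (adjusted p = 0.0117) was lost without day 3 replicate 1 (0.0568) or 3 (0.0644). Cdkn1a and Cdkn1b, which encode kinase inhibitors, differed by -0.24 and 0.32 without passing.

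Myc, the growth-promoting transcription factor, kept its untreated level at day 3 and was lower at day 5. Its counts were 4355, 3923 and 4539 at day 3 (untreated 3315 to 4388) and 1590, 1184 and 1276 at day 5, with no overlap between the days. The change was -1.67 ± 0.15 (adjusted p = 0.00187), and the day 5 libraries stood near the controls (1249 to 1342). Among 11 tested genes of the MYC network, Mxd1, an antagonist that pairs with Max, rose by 1.13 ± 0.25 (adjusted p = 0.0245). That call was lost without day 3 replicates 1, 2 or 3 or day 5 replicate 2 (adjusted p = 0.0874, 0.0666, 0.109 and 0.109) and in the fit of all 33 libraries (0.0678), and the other 9 genes did not pass.

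Hoxa genes, homeobox factors of the leukemic program, fell further. Of 21 listed Hox genes and cofactors 10 had enough reads to be tested. Of these 5 fell and 1 rose, with a median of -1.19 (-0.64 in the fit of all 33 libraries). With 1 library left out 5 to 6 fell and 0 to 1 rose. Without day 5 replicate 1, 9 were tested, 6 fell and 0 rose. Hoxa9 read 774, 496 and 471 at day 3 and 176, 182 and 192 at day 5, where untreated libraries read 1348 to 1774. Its fall of 1.62 (± 0.21, adjusted p = 0.00407) separated the groups, and so did that of Hoxa7 (353, 245 and 218 against 65.0, 78.4 and 68.0, log2 -1.91 ± 0.22, adjusted p = 0.00322). Hoxa10, Hoxa3 and Hoxa5 fell by 1.55, 1.94 and 2.19 (adjusted p = 0.00393, 0.00406 and 0.00437). The cofactor gene Meis1 differed by -0.49 (adjusted p = 0.160). The Hoxa genes lie in 1 cluster, and overlapping transcripts there can share reads.

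Progenitor genes fell in 13 of 24 tested members and rose in none, with a median of -1.10. With 1 library left out 7 to 13 fell and the median ranged from -1.15 to -0.21. In the fit of all 33 libraries 11 fell and the median was -0.85. Cd34, the surface sialomucin of stem and progenitor cells, counted 3923, 3149 and 4642 at day 3 and 1278, 1203 and 1026 at day 5 (untreated 9016 to 13034). Kit, the stem cell factor receptor, counted 804, 576 and 833 against 295, 260 and 241. Neither gene's groups overlapped, and the falls were 1.73 ± 0.17 (adjusted p = 0.00213) and 1.46 ± 0.19 (adjusted p = 0.00398). The steepest falls were of genes already far below their untreated level. Mn1, a transcriptional coregulator that can itself transform myeloid progenitors, went from 139, 82.6 and 89.1 to 12.2, 5.02 and 11.1 (untreated 761 to 1405). This was a 10.3-fold difference of log-scale means (log2 -3.36 ± 0.37, adjusted p = 0.00280). Nkx2-3, a homeobox gene, fell by 2.84 (± 0.25, adjusted p = 0.00187), and Angpt1, the Tie2 ligand, changed by -3.05 (± 0.43, adjusted p = 0.00504). Adgrg1 (GPR56) fell by 1.83, and Myb, the transcription factor that maintains progenitors, by 1.01. Members that did not pass included Erg (0.13), Runx1 (0.07) and Lmo2 (0.08), transcription factors of early hematopoiesis. With all 33 libraries in the fit, which takes in the spread among the controls, Cd34 (adjusted p = 0.164), Myb (0.0550) and Hoxa9 (0.0803) did not pass.

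Other large falls among genes of above-median level belonged to no list. Slc4a8, a sodium-coupled bicarbonate transporter, counted 1109, 842 and 973 at day 3 and 280.2, 312 and 234 at day 5 (log2 -1.82 ± 0.17, adjusted p = 0.00187). Bahcc1, which encodes a BAH domain protein, counted 1119, 833 and 708 against 184, 260.2 and 349.8 (log2 -1.76 ± 0.26, adjusted p = 0.00614). The groups were separate for both, and both had been higher still without doxycycline (1441 to 1765 and 2158 to 4796). Gria3, a glutamate receptor subunit, fell by 1.40 (adjusted p = 0.0109), a call that ended without day 3 replicate 3 (0.0574) or day 5 replicate 2 (0.0529).

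**Figure D2:**
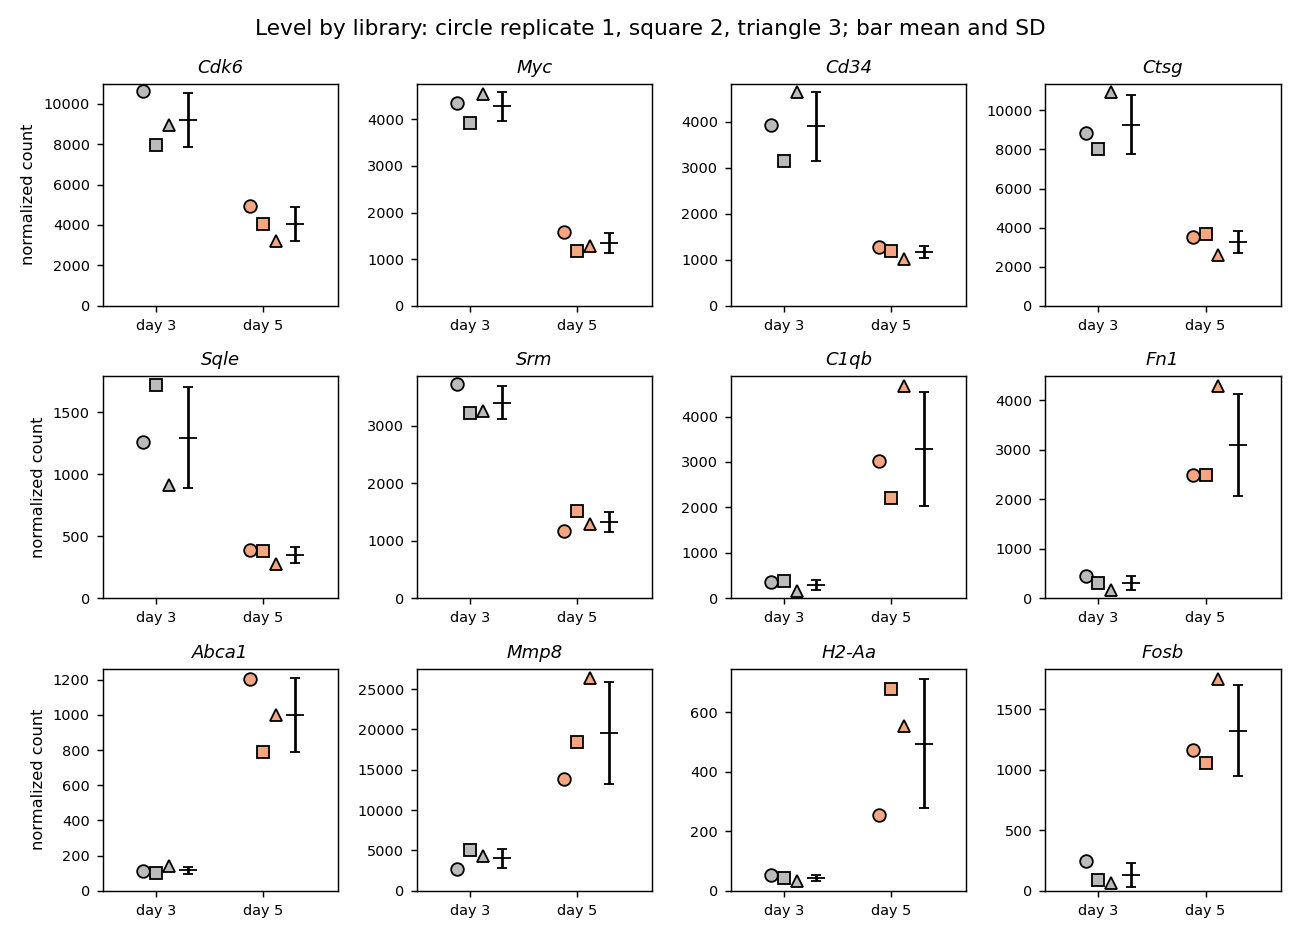
Normalized counts (vertical axes, each from 0) of 12 genes in the 3 day 3 and 3 day 5 libraries; symbols mark replicates and bars the mean and SD. In all 12 genes the days do not overlap, which the rule for the largest changes required of all but Cdk6 and H2-Aa. For H2-Aa day 5 replicate 1 (254) lies below the other day 5 libraries (677 and 553).

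Genes of secondary and tertiary granules, made by maturing neutrophils, rose in 18 of 23 tested members and fell in none, with a median of 1.22 (7 to 21 rises with 1 library left out, the highest without day 5 replicate 1; 5 in the fit of all 33 libraries). Mmp8, the neutrophil collagenase, counted 2769, 5102 and 4305 at day 3 and 13851, 18389 and 26344 at day 5, a 4.80-fold rise (log2 2.26 ± 0.28, adjusted p = 0.00392). Its groups were well apart, and its day 5 level exceeded the untreated range of 1579 to 3436. Olfm4, a secondary granule protein, rose by 1.30 (± 0.18, adjusted p = 0.00510). Retnlg, a resistin-like secreted protein, rose by 2.39, and Stfa2 and Stfa2l1, of the stefin A protease inhibitors, by 2.26 and 1.91; these belong to families of near-identical copies, so the share of each copy is uncertain. Ngp, a granule protein gene among the most abundant transcripts, read 103330, 134160 and 85315 against 152970, 334060 and 438580. It was called at adjusted p = 0.0452, and leaving out day 3 replicates 1, 2 or 3 or day 5 replicates 2 or 3 ended the call (0.135, 0.0876, 0.177, 0.165 and 0.0753). With all 33 libraries in the fit Mmp8 was called (adjusted p = 0.0374), whereas Olfm4 (0.226), Retnlg (0.129), Stfa2 (0.0721), Stfa2l1 (0.138) and Ngp (0.0720) were not.

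Among 22 tested genes of mature neutrophils 10 rose and none fell (median 0.92, 4 to 16 rises with 1 library left out, and 2 in the fit of all 33 libraries). Under quantile scaling, scaling to the library total and DESeq2, 8, 8 and 13 rose and 1 fell. Ly6g, the neutrophil surface marker, counted 224, 439 and 310 at day 3 and 999, 2182 and 2869 at day 5 (log2 2.56 ± 0.39, adjusted p = 0.00660). Its day 5 replicate 1 was the lowest of that day and still above day 3. Il1b, the inflammatory cytokine, rose by 2.18, Fpr1, the formyl peptide receptor, by 1.81, and Clec4d, a C-type lectin, by 1.69. With all 33 libraries in the fit Ly6g passed (adjusted p = 0.0248), but Il1b (0.0501), Fpr1 (0.151) and Clec4d (0.104) did not. Asprv1, a retroviral-like aspartic protease of no list, rose by 2.75 (124, 184 and 124 against 547, 1005 and 1604, adjusted p = 0.00418). Cxcr2, the chemokine receptor that draws neutrophils out of marrow, differed by 0.84 and Csf3r, the G-CSF receptor, by 0.83 without passing.

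Of 12 genes listed for primary granules, which form in promyelocytes, 5 fell, 2 rose and 5 did not pass (median -0.17). This list was not tested against the secondary and tertiary granule list. Ctsg, cathepsin G, counted 8849, 8022 and 10949 at day 3 and 3527, 3687 and 2625 at day 5 (log2 -1.50 ± 0.18, adjusted p = 0.00364). Cst7, cystatin F, fell by 1.14 (adjusted p = 0.00425), and neither gene's groups overlapped. Mpo, myeloperoxidase, read 37987, 28953 and 40370 against 11628, 19345 and 17147 (log2 -1.17 ± 0.22, adjusted p = 0.0140). Its call ended without day 3 replicate 1 (0.0648) or 3 (0.0736), and the falls in the list ranged from 2 to 5 with 1 library left out. With all 33 libraries in the fit 3 fell and 1 rose, and neither Mpo (0.0824) nor Igsf6 (0.296) passed. The risers were Lyst, which governs the size of lysosomes and granules, and Igsf6 (adjusted p = 0.00871 and 0.0240). Neither is known as a primary granule protein, so the list's median also covers genes of other kinds. Lyst lost its call without day 3 replicate 3 (0.0508), and Igsf6 without day 3 replicates 1, 2 or 3 (0.112, 0.0900 and 0.0973) or day 5 replicate 2 (0.0936).

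Monocyte and macrophage genes rose in 22 of 31 tested members and fell in none, with a median of 1.16 (14 to 26 rises with 1 library left out). The 3 chains of complement C1q, made by macrophages, rose together. C1qb read 353, 377 and 168 at day 3 and 3011, 2207 and 4663 at day 5 (untreated 15.2 to 116), 11.1-fold apart (log2 3.48 ± 0.36, adjusted p = 0.00229). C1qc rose by 3.39 and C1qa by 3.09 (adjusted p = 0.00344 and 0.00788), and these 3 genes lie side by side on chromosome 4. Fn1, fibronectin, read 459, 305 and 175 against 2499, 2497 and 4286 (log2 3.36 ± 0.35, adjusted p = 0.00230). Untreated libraries held 13.1 to 64.1 and controls 22440 to 42623, so the day 5 level lay between them. Siglec1 (CD169), a sialic acid receptor of macrophages, rose by 3.23 (249, 218 and 147 against 1128, 1824 and 3252), and C3ar1, the receptor for complement C3a, by 2.91. Mrc1, the mannose receptor, went from 50.2, 60.3 and 48.4 to 456, 322 and 423, a rise of 2.89 ± 0.20 (adjusted p = 0.000983) with narrow spread on both days. Cx3cr1, the fractalkine receptor, rose by 1.42 and Fcgr1, the high-affinity IgG receptor, by 1.64. Members that did not pass were among others Ly6c2 (-0.11), Cd68 (0.32) and Cd163 (-0.11).

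Of 15 listed complement, Fc receptor and phagocyte receptor genes 8 rose (5 to 11 with 1 library left out) and none fell. Myeloid transcription factors rose in 12 of 26 tested members (median 0.73, 7 to 18 with 1 library left out) and fell in none; under scaling to the library total 9 rose and 1 fell. Maf, a factor of macrophage identity, counted 288, 302 and 229 at day 3 and 899, 611 and 788 at day 5, with no overlap, and untreated libraries 8.09 to 94.8. Its rise was 1.48 ± 0.19 (adjusted p = 0.00409). Klf2 rose by 1.15 and Atf3, a stress-induced factor, by 1.79. Spi1 (PU.1), Cebpa and Irf8, the lineage factors of granulocytes and monocytes, differed by 0.34, 0.07 and 0.08 and did not pass.

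**Figure D3:**
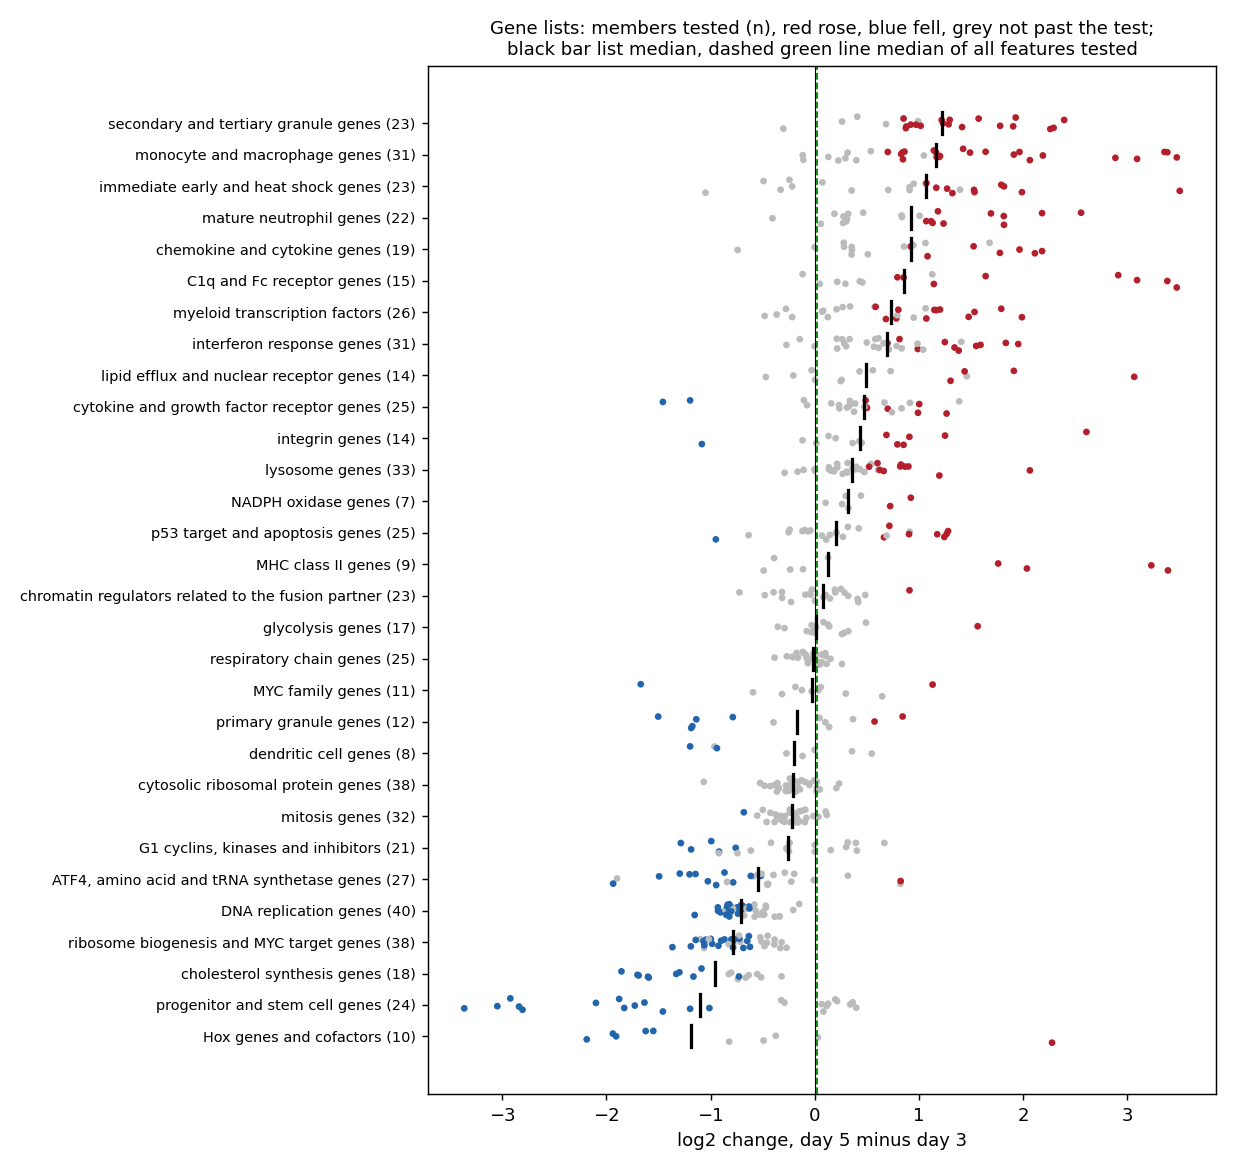
Log2 change (horizontal axis) of every tested member of each gene list with at least 7 tested members (rows, n in brackets); red rose, blue fell, grey did not pass, the black bar is the list's median and the dashed line that of all features (0.02). Secondary and tertiary granule genes lie highest (median 1.22) and Hox genes and cofactors lowest (-1.19).

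Lists of surface and effector genes of phagocytes held fewer called members. With 1 library left out, the rises counted next ranged over 5 to 12 for chemokines and cytokines, 2 to 15 for receptors, 1 to 8 for integrins, 1 to 5 for the oxidase and 2 to 20 for lysosomes. Among 19 chemokine and cytokine genes 7 rose. The one with the smallest adjusted p was Ccl6 (1.97 ± 0.15, adjusted p = 0.00105; 1677, 1484 and 1320 against 5396, 5521 and 6587), a CC chemokine of myeloid cells. Ccl2, the monocyte attractant, rose by 1.53 and Il18 by 1.78. Of 25 cytokine and growth factor receptors 6 rose and 2 (Kit and Flt3) fell; Il13ra1 rose by 1.27 and Tgfbr2 by 0.99. Flt3 (adjusted p = 0.0114) lost its call without day 3 replicate 3 (0.0619) or day 5 replicate 2 (0.0584), and in the fit of all 33 libraries (0.0528). Integrin genes rose in 6 and fell in 1 of 14: Itgb5 rose by 1.25, while Itga9 rose by 2.61 from 2.91 to 5.10 counts to 22.1 to 37.9. Itga9 reached the minimum of 10 counts at day 5 alone, so it entered the test through the day where it was high. It was not tested when a day 5 library was left out. Of 7 NADPH oxidase genes, which make superoxide in phagosomes, 2 rose; Cybb, the catalytic subunit, counted 15068, 17656 and 15027 at day 3 and 31821, 29111 and 29392 at day 5 (log2 0.92 ± 0.14, adjusted p = 0.00620). Lysosome genes rose in 10 of 33 (4 under quantile scaling and 3 under scaling to the library total), with Lgmn, a cysteine protease, highest at 2.07.

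Among genes of lipid efflux and its nuclear receptors 4 of 14 tested members rose, 10 did not pass and the median was 0.49. Abca1, the transporter that exports cholesterol to apolipoproteins, counted 114, 100.2 and 139 at day 3 and 1207, 789 and 1000 at day 5, below and above its untreated range of 192 to 343. The rise was 8.38-fold (log2 3.07 ± 0.21, adjusted p = 0.000983). Apoe, apolipoprotein E, rose by 1.91 ± 0.18 (2409, 3097 and 2493 against 10010, 8103 and 12226), Mylip, an E3 ubiquitin ligase, by 1.44 and Abcg1 by 1.30. Nr1h3 (LXR alpha), the sterol-sensing receptor known to activate these genes, differed by 0.56 without passing.

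In the cholesterol synthesis list 10 of 18 tested genes fell, none rose, all 18 were negative and the median was -0.96 (3 to 14 falls with 1 library left out; 15 under scaling to the library total). Sqle, squalene epoxidase, counted 1256, 1719 and 913 at day 3 and 390, 384 and 276 at day 5. Its day 3 values lay above the untreated range of 718 to 910 and its day 5 values below it, and the change was -1.86 ± 0.25 (adjusted p = 0.00425). Fdps, farnesyl diphosphate synthase, read 644, 843 and 651 against 242, 256 and 164 (log2 -1.70 ± 0.21, adjusted p = 0.00391). Insig1, the sterol-regulated anchor of SREBP processing, fell by 1.16 (adjusted p = 0.00955). Cyp51, lanosterol demethylase, fell by 1.60 (adjusted p = 0.0145), a call that ended without day 3 replicate 2 (0.0531) or day 5 replicate 2 (0.0650).

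The promoters of genes of this pathway are shown because they fell together and because CCAAT boxes, bound by NF-Y, are a known feature of sterol-regulated promoters. Within 250 bases before and 50 after the start (RefSeq, GRCm38.p6), the letters CCAAT on either strand occurred in 11 of 12 promoters found for the list, in 6 of 7 of those of fallen genes, and in 37.9% of 27025 promoters. Capitals mark the match (ATTGG is the other strand), and each sequence reads 5′ to 3′ on the gene's strand.
Cyp51 (chr5:4104648-4104947, minus strand): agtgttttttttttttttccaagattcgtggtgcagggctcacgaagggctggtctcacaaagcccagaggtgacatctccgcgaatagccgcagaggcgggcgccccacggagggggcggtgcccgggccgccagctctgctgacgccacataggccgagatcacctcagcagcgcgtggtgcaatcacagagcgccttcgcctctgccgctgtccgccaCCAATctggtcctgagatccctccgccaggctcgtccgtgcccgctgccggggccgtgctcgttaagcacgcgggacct
Insig1 (chr5:28071162-28071461, plus strand): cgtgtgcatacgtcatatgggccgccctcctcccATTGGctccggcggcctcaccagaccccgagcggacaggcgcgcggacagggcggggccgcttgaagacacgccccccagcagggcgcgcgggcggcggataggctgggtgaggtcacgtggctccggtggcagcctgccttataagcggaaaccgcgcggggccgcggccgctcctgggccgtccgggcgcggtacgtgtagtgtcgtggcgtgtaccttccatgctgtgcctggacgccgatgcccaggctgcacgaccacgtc
A match describes letters only, and no binding was measured here.

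MHC class II genes divided into members that rose and members that did not pass. H2-Aa, the alpha chain of I-A, counted 54.4, 41.8 and 33.9 at day 3 and 254, 677 and 553 at day 5 (untreated 15.2 to 80.3), 10.5-fold apart (log2 3.39 ± 0.36, adjusted p = 0.00253). H2-Eb1 went from 10.2, 10.2 and 7.75 to 45.0, 145 and 135 (log2 3.23 ± 0.44, adjusted p = 0.00464). In both genes day 5 replicate 1 was the lowest library of its day, and no day 3 library reached it. Cd74, the invariant chain, rose by 2.04 and H2-Ab1 by 1.76 (adjusted p = 0.0107 and 0.0388). The first lost its call without day 3 replicate 3 (0.0563) or day 5 replicate 2 (0.0547), the other without day 3 replicate 2 or 3 or day 5 replicate 2 or 3 (0.138, 0.144, 0.149 and 0.0750) or with all 33 libraries in the fit (0.0734). In total 4 of 9 rose (2 to 4 with 1 library left out) and none fell, and the list's median was 0.13, or -0.10 under scaling to the library total. The peptide-loading genes H2-DMa and H2-DMb1 differed by 0.13 and -0.39. Ciita, the class II transactivator, had too few reads to be tested: 5.10, 5.57 and 0 at day 3 and 1.82, 15.1 and 15.6 at day 5.

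Other cells that express class II were looked for by their markers. Of 17 B cell markers 15 were in the table and 4 were tested. Jchain, the joining chain of secreted antibodies, rose (6.80, 10.2 and 4.84 against 38.9, 21.1 and 129, log2 2.60 ± 0.61, adjusted p = 0.0287) and lost its call without any 1 of the day 3 replicates 1, 2 and 3 (0.0945, 0.0663 and 0.113). The 4 tested members had a median of 0.82, against 0.02 for all features. The list summed to 1256 to 1506 at day 3 and 1553 to 1592 at day 5. Ms4a1 (CD20) reached at most 0.97 counts in any of the 6 libraries and Fcmr was at 0 in all, so members not named here held most of these counts. Of 15 dendritic cell genes 8 were tested; none rose, Flt3 and Dpp4 fell (Dpp4 not without day 3 replicates 1, 2 or 3 or day 5 replicate 2, adjusted p = 0.0800, 0.0607, 0.0907 and 0.0911), and the list summed to 2935 to 3958 and 2594 to 2754. Their part in the class II values was not tested.

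The promoters of the pair of class II genes with the largest rises are given next, since a CCAAT-type Y box is a known part of class II promoters. The same letters were found in 7 of the 8 promoters matched for the class II list and are in capitals.
H2-Aa (chr17:34287774-34288073, minus strand): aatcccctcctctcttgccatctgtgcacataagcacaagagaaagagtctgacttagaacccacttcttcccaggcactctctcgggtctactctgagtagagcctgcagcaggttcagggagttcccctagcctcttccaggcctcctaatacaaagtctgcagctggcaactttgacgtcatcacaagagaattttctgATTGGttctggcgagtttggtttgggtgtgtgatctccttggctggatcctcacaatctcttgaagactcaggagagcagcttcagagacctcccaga
H2-Eb1 (chr17:34305617-34305916, plus strand): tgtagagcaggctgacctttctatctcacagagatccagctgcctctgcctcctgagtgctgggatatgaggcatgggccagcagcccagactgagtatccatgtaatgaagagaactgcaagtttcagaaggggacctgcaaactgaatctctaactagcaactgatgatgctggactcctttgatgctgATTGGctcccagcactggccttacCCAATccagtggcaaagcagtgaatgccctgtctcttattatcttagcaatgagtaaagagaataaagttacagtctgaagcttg
H2-Eb1 holds a match on each strand and H2-Aa holds 1.

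**Figure D4:**
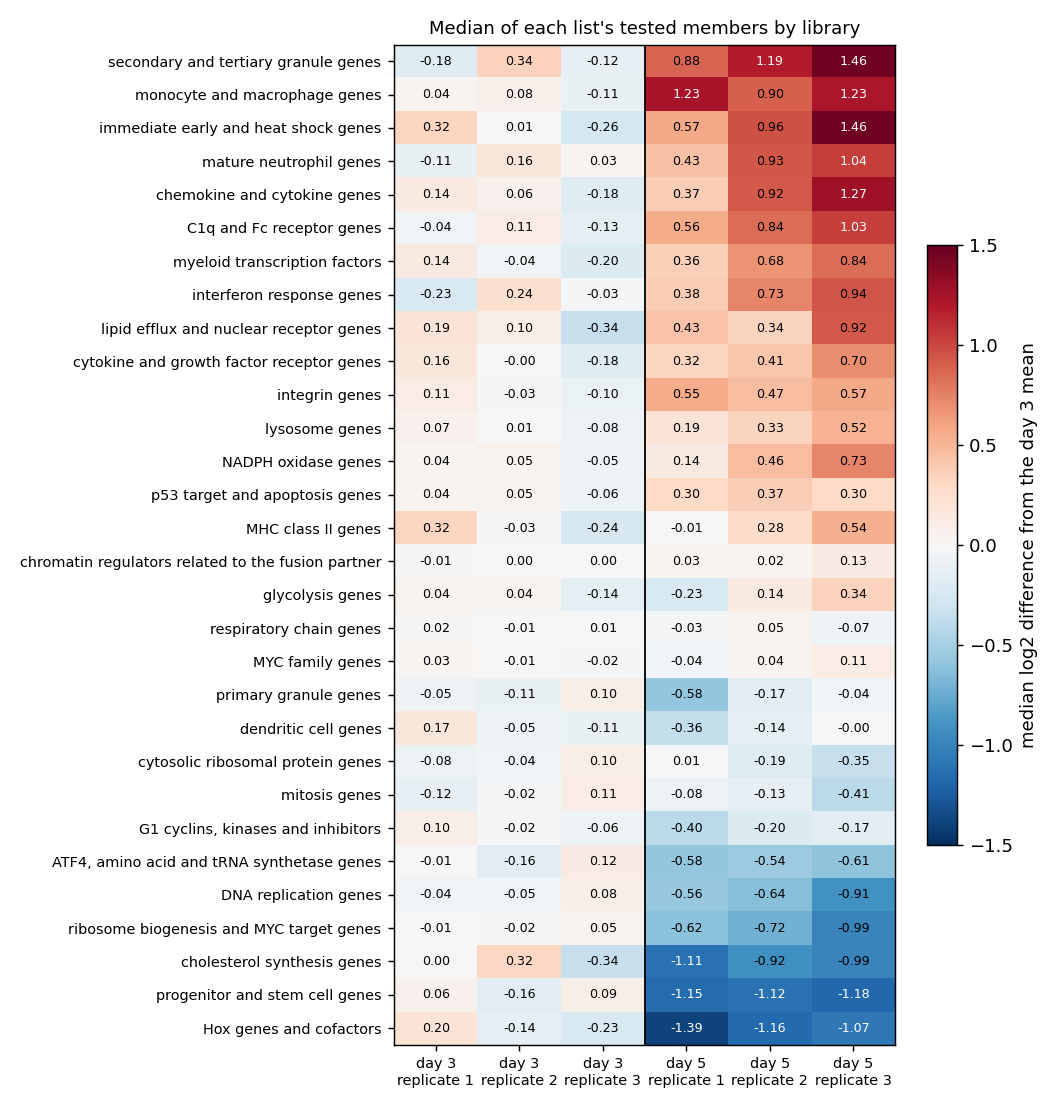
Median log2 difference of each list's tested members from the day 3 mean (colour and printed value), by list (rows) and library (columns). Cholesterol synthesis genes sit at -1.11, -0.92 and -0.99 in the day 5 libraries, and mature neutrophil genes at 0.43 in day 5 replicate 1 against 0.93 and 1.04 in the others.

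In the replication list 21 of 40 tested genes fell, none rose, every member was negative, and the median was -0.71 (4 to 35 falls with 1 library left out). Mcm2, a subunit of the replicative helicase, counted 5534, 5202 and 4897 at day 3 and 2630, 3002 and 2582 at day 5. Untreated libraries read 5042 to 5676, close to day 3, and the change was -0.93 ± 0.13 (adjusted p = 0.00474). Pold2, a subunit of DNA polymerase delta, fell by 1.15 and Mcm3 by 0.82. Of 32 mitosis genes 1, Cdk1, fell in limma (0.68, adjusted p = 0.0417), and that call ended in every fit without 1 library except the fit without day 5 replicate 1 (0.0621, 0.143 and 0.167 without day 3 replicates 1, 2 and 3, and 0.114 and 0.0903 without day 5 replicates 2 and 3); the list's median was -0.22. Between 0 and 6 mitosis genes fell with 1 library left out (6 without day 5 replicate 1), 6 under scaling to the library total, 6 with all 33 libraries in the fit and 3 in DESeq2. Mki67, a marker of cycling cells, differed by -0.01. Whether the lists differ from each other was not tested.

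Among 38 ribosome biogenesis genes 21 fell and none rose, all 38 were negative, and the median was -0.78 (5 to 34 falls with 1 library left out; 30 under scaling to the library total). Srm, spermidine synthase and a known MYC target, counted 3733, 3218 and 3259 at day 3 (untreated 2780 to 3632) and 1174, 1510 and 1287 at day 5 (log2 -1.37 ± 0.14, adjusted p = 0.00237). Ppan and Nolc1, nucleolar factors, fell, with changes of -1.19 and -1.0. Of 38 genes of the ribosomal proteins themselves limma called 0 (2 had an unadjusted p under 0.05, both lower; edgeR and DESeq2 called 0; median -0.21), while 4 fell under scaling to the library total, 2 under quantile scaling, 1 with all 33 libraries in the fit and 0 to 6 with 1 library left out (6 without day 5 replicate 1). Of 27 amino acid, one-carbon and tRNA synthetase genes 11 fell (4 to 16 with 1 library left out) and Nupr1, a stress gene, rose (median -0.55); the call of Nupr1 (adjusted p = 0.0202) ended without any 1 library but day 5 replicate 1 (0.0566 to 0.0941), and with all 33 libraries in the fit (0.0737). Phgdh, which opens serine synthesis, fell by 1.94 (366, 299.8 and 492 against 88.8, 101.5 and 105; untreated 210 to 266), Slc7a5, the leucine transporter, by 1.49 and Shmt2, mitochondrial serine hydroxymethyltransferase, by 1.30. All 3 genes had day 3 means above the untreated range and day 5 means below it. Atf4, the transcription factor known to drive many of these genes, differed by -0.45 (adjusted p = 0.116). Of 17 glycolysis genes Slc2a3, a glucose transporter, rose (adjusted p = 0.0164; 0.0698 and 0.0780 without day 3 replicates 1 and 3, 0.0800 without day 5 replicate 2). Of 25 respiratory chain genes limma and edgeR called 0 and DESeq2 1, and 1 had an unadjusted p under 0.05. Quantile scaling and scaling to the library total each gave 2 falls. The fit of all 33 libraries gave 1, and leaving out 1 library gave 0 to 1.

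The E-box CACGTG is the sequence MYC-MAX binds. It occurred in 8 of 32 promoters matched for the ribosome biogenesis list, in 5 of 17 of those of fallen genes, and in 7.24% of all promoters of the same length. The promoter of Mybbp1a, a nucleolar gene that fell by 0.78 (adjusted p = 0.00926; 0.0504 without day 3 replicate 2), is given as an example chosen after its values were seen, with the match in capitals.
Mybbp1a (chr11:72441077-72441376, plus strand): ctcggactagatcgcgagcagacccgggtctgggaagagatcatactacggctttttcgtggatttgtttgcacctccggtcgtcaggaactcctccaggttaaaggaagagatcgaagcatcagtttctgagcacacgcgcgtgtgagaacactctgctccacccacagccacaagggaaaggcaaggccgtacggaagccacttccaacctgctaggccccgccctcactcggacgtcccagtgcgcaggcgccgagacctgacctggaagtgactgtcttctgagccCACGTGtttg
In this gene the match lies after the start.

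Immediate early genes rose in 10 of 23 tested members (5 to 17 with 1 library left out) of a list that also holds heat shock genes, and none fell. Falls numbered 0 to 2 with 1 library left out and 2 under scaling to the library total. DESeq2 and the fit of all 33 libraries each gave 1 fall. Fosb, an AP-1 subunit, read 244, 86.3 and 67.8 at day 3 and 1163, 1055 and 1748 at day 5 (log2 3.50 ± 0.44, adjusted p = 0.00391). The days did not overlap, and the untreated libraries, at 97.1 to 1426, covered levels of both. Fos and Jun rose by 1.99 and 1.17. Such genes are known to respond within minutes to cell handling; of the heat shock genes, Hspa1a (1.39), Hsph1 (-0.33), Dnajb1 (-0.24) and Hspa8 (0.07) did not pass, and the part of handling was not tested.

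Interferon response genes rose in 10 of 31, with a median of 0.70 and a range of 1 to 21 rises when 1 library was left out. Rtp4 counted 74.8, 189 and 140 at day 3 and 435, 445 and 609 at day 5 (log2 1.95 ± 0.32, adjusted p = 0.00904); untreated libraries read 295 to 694. Of 25 tested targets of p53 and regulators of apoptosis, 7 were higher at day 5 and 1 was lower (4 to 11 higher with 1 library left out), with a median of 0.21 that became -0.02 under scaling to the library total. Fas, the death receptor, rose by 1.28, Bcl2l11 (BIM) by 0.91 and Trp53inp1 by 1.18, whereas Bcl2, the survival factor, fell by 0.95. The fall of Bcl2 (adjusted p = 0.0201) was lost without day 3 replicates 1, 2 or 3 (0.0868, 0.0663 and 0.0869) or day 5 replicate 2 (0.0900). Of 23 chromatin regulators, Kdm5b, a relative of the fusion partner, rose by 0.91 and the others did not pass; without day 5 replicate 1, 4 rose and 4 fell, and with all 33 libraries in the fit 4 rose and 2 fell.

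In each list of markers of the remaining blood and marrow cells, most members had too few reads to be tested. Hba-a1, Hba-a2, Hbb-bt and Hbb-bs of red cells were at 0 in all 6 libraries. These belong to families of near-identical copies, whose shared reads may not have been counted, so the zeros may not mean absence. No erythroid (3 tested), eosinophil (1) or platelet (3) marker was called. Those lists summed to 357 to 426 and 375 to 666, 379 to 409.8 and 335 to 344, and 30.0 to 75.7 and 77.2 to 85.8 at day 3 and day 5. The basophil and mast cell genes Cpa3 and Gata2 fell, in a list that summed to 1530 to 1770 and 1358 to 3342; Gata2 is also a progenitor gene, and Fcer1a was at 0 throughout. Both calls (adjusted p = 0.0293 and 0.0249) ended without day 3 replicate 1 (0.0734 and 0.102), day 3 replicate 3 (0.104 and 0.112) or day 5 replicate 2 (0.0699 and 0.0780), and that of Cpa3 also without day 3 replicate 2 (0.0556) or day 5 replicate 3 (0.0622). The NK cell receptor gene Klrb1c fell by 2.35 (adjusted p = 0.0176; 0.0791, 0.0805 and 0.0781 without day 3 replicates 1 and 3 and day 5 replicate 2), with Cd3e and Ncr1 at 0 and list sums of 288 to 375 and 204 to 300.3. Pecam1, of the endothelial list and also of leukocytes, fell by 1.19; Tek, Kdr and Emcn were at 0, and that list summed to 1163 to 1536 and 638 to 706.

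The change between the days was then compared with that in the other models, in a fit of all 18 doxycycline libraries. Against NUP98-DDX10, 659 of 11820 features (5.58%) differed, 330 more positive and 329 more negative in NUP98-JARID1A; under scaling to the library total these were 162 and 1068. Against NUP98-NSD1, 39 differed (0.33%). The cholesterol synthesis genes differed in 13 of 18 members from NUP98-DDX10, each more negative, and in none from NUP98-NSD1. Their median change was -0.96 here, 0.32 in the NUP98-DDX10 model and -0.44 in the NUP98-NSD1 model; 3 of them had an unadjusted p under 0.05 against the latter, and edgeR and DESeq2 called 0 there. Sqle changed by -1.86, 0.60 and -0.85 in that order, a difference of -2.46 ± 0.39 from NUP98-DDX10 (adjusted p = 0.00284) and -1.0 ± 0.39 from NUP98-NSD1 (adjusted p = 0.407). More negative changes than in NUP98-DDX10 were also found for 15 of 40 replication, 15 of 38 ribosome biogenesis and 11 of 27 amino acid and tRNA synthetase genes, and more positive ones for 7 of 31 monocyte and macrophage and 7 of 33 lysosome genes. Under scaling to the library total these were 25, 29, 18, 5 and 3 genes (1 lysosome gene was then more negative), and 17 for cholesterol synthesis. Abca1 changed by 3.07, -0.43 and 1.86, and differed from NUP98-DDX10 by 3.50 ± 0.46 (adjusted p = 0.00124).

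A few genes differed from both models. Slc43a3, a purine nucleobase transporter, went from 57.8, 69.6 and 56.2 to 198, 284 and 245 and rose by 1.96, against -0.34 in NUP98-DDX10 and -0.78 in NUP98-NSD1 (adjusted p = 4.54e-06 and 2.92e-07). Ccnd1 changed by -1.29 here, 0.18 in NUP98-DDX10 and -0.21 in NUP98-NSD1 (adjusted p = 6.1e-05 and 0.00178). Myc differed by -1.06 ± 0.22 and -1.09 ± 0.22 (adjusted p = 0.0113 and 0.0437), and Hoxa7 by -1.64 ± 0.26 and -1.71 ± 0.26 (adjusted p = 0.00269 and 0.00624). Both of these were looked up after their changes here were known. For Cdk6 neither difference passed: the changes were -1.19, -0.66 and -0.97, and the differences -0.53 ± 0.25 (adjusted p = 0.237) and -0.22 ± 0.25 (adjusted p = 0.945). Cd34, which changed by -1.75 in NUP98-NSD1 and -0.85 in NUP98-DDX10, did not pass either (adjusted p = 0.995 and 0.0777).

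**Figure D5:**
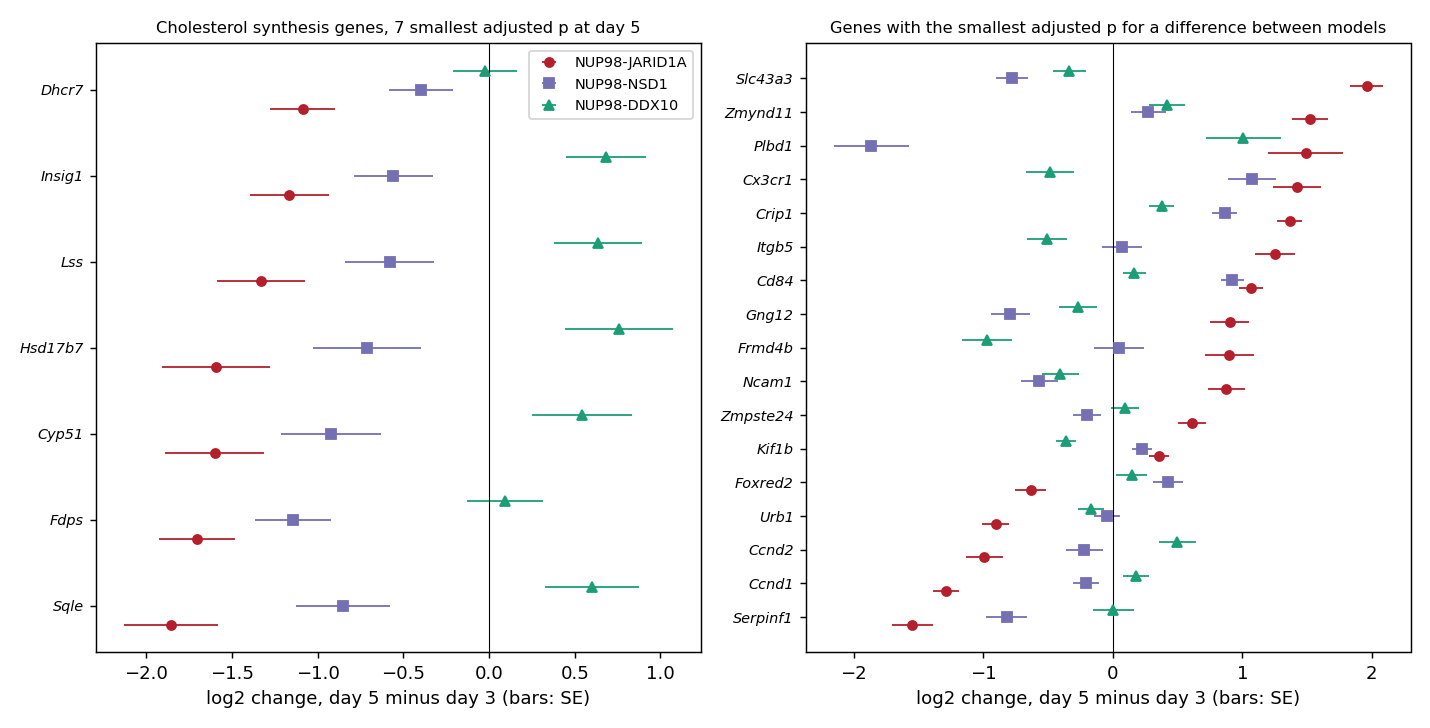
Log2 change from day 3 to day 5 (horizontal axes, bars SE) in cells of the 3 models for the 7 cholesterol synthesis genes with the smallest adjusted p at day 5 (left) and for the genes with the smallest adjusted p for a difference between models (right). Sqle lies at -1.86 for NUP98-JARID1A, -0.85 for NUP98-NSD1 and 0.60 for NUP98-DDX10, and Slc43a3 at 1.96, -0.78 and -0.34.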

How the data were processed

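The deposited values are signal, here normalized counts made by the authors, that is reads divided by a size factor per library; in the 6 libraries 100% of values were whole multiples of 1 step within 0.01 reads. The authors used STAR, SAMtools, featureCounts and DESeq2 on GRCm38 and mm10, per the submitters' processing notes (no versions given); whether counting used strand is not given in the sources used here. The table holds 24462 features, 24454 of them genes by Entrez identifier and 24376 of these with a symbol (GRCm38.p6), and 8 constructs. The 2 ChIP samples were not analysed here.

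limma 3.58.1 (R 4.3.3, mean-variance trend) was run on log2(value + 1) of the 6 libraries, keeping features that reached 10 in 3 or more of them, two-sided, with Benjamini-Hochberg adjustment and a threshold of 0.05; a value after ± beside a log2 difference is its SE. Fold values are the antilog of the log2 difference. Differences between models used the interaction in 18 doxycycline libraries. The fit was tested on simulated data. Alternatives were a pseudocount of 10, no filter, a minimum of 50, quantile and TMM scaling, edgeR 4.0.16 and DESeq2 1.42.0 on the recovered reads, a replicate block, leaving out each library, a fit of all 33 libraries and, added after seeing the data, scaling to the library total.

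Named genes were the constructs, Nup98, Kdm5a and Cdk6, the 15 largest rises and falls with no overlap and a mean above the median, the called members with the lowest adjusted p in each list (at most 4), and the 10 genes with the smallest adjusted p for each difference between models; other genes printed are list members given for context, and some named genes are not reported here. The members and the 38 lists were chosen with earlier results of these data known. For the 15 largest rises and falls, separate groups follow from how they were chosen.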

Additional observations from a re-analysis of the deposited data

Results flagged for a closer look

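The difference between models in the change from day 3 to day 5 passed the test (limma, interaction over 18 libraries) for the genes listed here, on the log2 scale and signed as NUP98-JARID1A minus the other model. Against NUP98-DDX10, the change was more positive for Slc43a3 (2.30), Itgb5 (1.76), a beta integrin, Cx3cr1 (1.91), Crip1 (0.99), Cd84 (0.90), a SLAM family receptor, Frmd4b (1.87) and Kif1b (0.72), a kinesin. It was more negative for the D cyclins Ccnd1 (-1.46) and Ccnd2 (-1.49) and for Serpinf1 (-1.55), which encodes the secreted factor PEDF. Against NUP98-NSD1, it was more positive for Slc43a3 (2.74), Plbd1 (3.35), Gng12 (1.69), Ncam1 (1.45), an adhesion molecule, Zmynd11 (1.24), a reader of histone H3.3, Itgb5 (1.18) and Zmpste24 (0.81). It was more negative for Ccnd1 (-1.08), Foxred2 (-1.06) and Urb1 (-0.86). Plbd1 changed by 1.49 here and by -1.86 in NUP98-NSD1 cells.

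The row of another fusion, NUP98-HOXA9, held a few counts in libraries of this model although no sample is labelled with it. Its counts were 5.95, 4.64 and 7.75 at day 3 and 1.82, 2.01 and 0 at day 5, with 8.09 to 21.7 in untreated libraries and 0 in the controls. It was not tested, because none of the 6 libraries reached the minimum of 10.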

How the results depend on the processing

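Of 127 named genes and constructs 121 were called, and 86 of them lost the call in none of 6 fits that left out 1 library. Itga9, counted among the 86, was not tested in the fits without a day 5 library. No called gene among them changed direction under any alternative run. Among values not called, leaving out 1 library moved the NUP98-JARID1A row between -0.34 (without day 5 replicate 1) and 0.02 (without day 5 replicate 3), Nup98 between -0.06 and 0.0 (without day 3 replicates 2 and 1), eGFP between -0.15 and 0.08 (likewise), and luciferase between -0.13 (without day 5 replicate 3) and 0.06 (without day 3 replicate 1), with 0.05 without day 5 replicate 1. Counts of rises and falls were 226 to 1793 and 119 to 1322 with 1 library left out, 1208 and 1306 with all 33 libraries in the fit, 1117 and 913 in DESeq2, and 476 and 1216 under scaling to the library total. For the difference from NUP98-DDX10 the more positive and more negative counts were 148 to 992 and 154 to 946 with 1 library left out, 612 and 522 in DESeq2, and 162 and 1068 under scaling to the library total. For NUP98-NSD1 they were 6 to 44 and 11 to 46 with 1 library left out, 61 and 66 in DESeq2, 36 more positive with a pseudocount of 10 and 16 more negative without a filter. The cause of these shifts was not tested. The labels do not say whether replicate numbers pair the days. Correlations of deviations from the day's mean were -0.52, -0.01 and -0.52 for the same number and -0.24 to 0.54 for other pairs. Deviations from a mean of 3 libraries are tied to each other, so these values cannot decide it. With a replicate block the counts of rises and falls were 198 and 97. The more positive and more negative counts were then 43 and 33 against NUP98-DDX10, and 4 and 2 against NUP98-NSD1. Differences from NUP98-NSD1 ended for Itgb5 without any 1 of 6 libraries (adjusted p 0.0517 to 0.0832), for Zmpste24 without any 1 of 9 (0.0511 to 0.1) and for Urb1 without NUP98-NSD1 day 3 replicate 2 (0.0515). Depth limits genes with few reads, such as Ciita.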
